A study of Mus musculus with 10 samples.

Results

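The genes described are 10 genes of melanin synthesis and of the melanosome, the organelle in which pigment cells make and store melanin: Tyr, Tyrp1, Dct, Pmel, Slc24a5, Slc45a2, Oca2, Trpm1, Mlana and Gpr143. They were taken by name from the 49671 gene IDs of the count files, and each has 1 ID. The study asked how the skin transcriptome of mice with an altered neuropeptide Y gene differs from that of their siblings. Poly(A) RNA of whole skin was sequenced from 5 NPYtet mice, homozygous for the Npytm2Rpa allele on the B6;129S4 background (NPY tet/tet; 3 labelled female and 2 labelled male), and from 5 WT siblings (NPY +/+; 2 labelled female and 3 labelled male). All mice were 22 weeks old, each gave 1 library, and no treatment is named. The allele is carried in every cell, and the labels do not describe it further.

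Melanin is built from tyrosine by tyrosinase and its relatives inside melanosomes, on fibrils made of the Pmel protein, while transporters and channels of the melanosome membrane set its ion content and acidity. The transcription factor Mitf drives many of these genes in melanocytes by binding short promoter motifs. In furred mouse skin most melanocytes lie in hair follicles, and they make melanin while a hair is growing.

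In these data all 10 genes had lower levels in NPYtet than in WT skin on average. The distance between the groups was set mostly by WT replicates 1 and 4, which held 88.9% of the 37565 WT reads of the 10 genes. The 5 NPYtet libraries together held 3208 such reads. Pmel was 10.2-fold and Tyrp1 21.1-fold lower in the fitted comparison, with log2 fold changes of -3.35 (SE 0.574) and -4.40 (SE 0.820) over 5 mice per genotype. With limma voom and quality weights the values were -1.49 for Pmel and -2.43 for Tyrp1. All 7 genes with enough reads to be tested had negative log2 fold changes, as did 51.2% of all genes tested. None of the 7 passed an adjusted p of 0.05 in edgeR's quasi-likelihood test, and neither did any other gene in the lower direction (0% of 18060 genes). At an unadjusted p under 0.05, 6 of the 7 were lower, against 2.14% of all genes tested. Fewer pigment cells and less RNA per pigment cell cannot be told apart in whole skin.

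The promoters are shown first because 5 of the 6 genes found in the RefSeq promoter table (GRCm38.p6) hold the letters TCATGTG, the M-box that Mitf is known to bind, in the 250 bases before to 50 bases after a gene start. The 6 genes are Tyr, Tyrp1, Dct, Slc24a5, Oca2 and Trpm1, and Trpm1 has 2 windows, so by window 5 of 7 held TCATGTG. On either strand, TCATGTG stood in 3.78% of 32817 mouse promoter windows of the same length, its core CATGTG, which lies inside every TCATGTG, in 14.2%, and the related CACGTG in 7.15%. The sequences below give the 250 bases upstream of the start in the direction of the gene, for the 3 melanin enzymes and the channel Trpm1, with each TCATGTG, or CACATGA where it reads on the opposite strand, in capitals.
Tyr, chr7:87493513-87493762, minus strand: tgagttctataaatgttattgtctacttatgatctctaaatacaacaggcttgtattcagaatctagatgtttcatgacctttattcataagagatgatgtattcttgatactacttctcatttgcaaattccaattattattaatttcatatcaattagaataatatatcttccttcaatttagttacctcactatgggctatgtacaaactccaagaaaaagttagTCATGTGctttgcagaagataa
Tyrp1, chr4:80833963-80834212, plus strand: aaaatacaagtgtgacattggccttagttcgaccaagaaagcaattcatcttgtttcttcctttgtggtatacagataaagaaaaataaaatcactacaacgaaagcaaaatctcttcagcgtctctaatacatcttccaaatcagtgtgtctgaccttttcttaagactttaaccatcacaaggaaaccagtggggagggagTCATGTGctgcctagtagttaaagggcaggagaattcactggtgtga
Dct, chr14:118052247-118052496, minus strand: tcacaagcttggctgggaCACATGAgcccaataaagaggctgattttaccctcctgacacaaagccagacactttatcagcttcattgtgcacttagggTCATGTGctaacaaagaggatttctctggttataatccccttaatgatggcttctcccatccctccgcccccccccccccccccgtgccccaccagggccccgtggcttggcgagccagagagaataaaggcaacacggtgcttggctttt
Trpm1, chr7:64153585-64153834, plus strand: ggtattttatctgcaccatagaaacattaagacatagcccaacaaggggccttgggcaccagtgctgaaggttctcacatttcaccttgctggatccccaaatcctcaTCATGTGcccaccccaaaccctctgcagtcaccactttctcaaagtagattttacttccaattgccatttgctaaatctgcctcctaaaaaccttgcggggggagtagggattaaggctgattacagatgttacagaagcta

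The M-box began 22 bases before the start in Tyr, 47 in Tyrp1 and 142 in the first window of Trpm1. Dct held it 151 bases before the start in the gene's direction and again at 232 bases on the opposite strand. Slc24a5 held it on the opposite strand, 13 bases before the start. Oca2 held the core alone, on the opposite strand at 186 bases. The other Trpm1 window held CACGTG 229 bases before its start and the core CATGTG on the opposite strand 37 bases after it. The sites of these 2 genes outside the sequences above, Slc24a5 and Oca2, are printed on the strand that reads CATGTG, with the motif in capitals. Such matches describe the letters of the windows only, and no binding was measured.
Slc24a5, chr2:125068106-125068126, minus strand: gctgaaTCATGTGagcagtct
Oca2, chr7:56239565-56239585, minus strand: ttccagcCATGTGtagcaagc

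Total counts ran from 23209405 in NPYtet replicate 5 to 53357695 in WT replicate 4. Levels below are CPM, the reads of a gene per 1000000 reads of the library, with library sizes scaled by the trimmed mean of M values (TMM), and a negative log2 fold change means a lower level in NPYtet than in WT. NPYtet replicate 5 and WT replicate 2 stood apart, with 19953 and 21144 genes with a read, against 24710 to 26323 in the other libraries, and with the 2 lowest scaling factors, 0.652 and 0.696. NPYtet replicate 5 also had 9.27% mitochondrial reads, against 1.86% to 3.03% elsewhere, and 4.40% of its reads at a ribosomal RNA locus, where WT replicate 2 had 1.67% and the others 0.222% to 0.406%. The part of RNA quality in the results was not tested. NPYtet replicate 1, labelled female, held 2 Xist reads and 1513 reads of the Y-linked Ddx3y, which goes against its label. Npy itself averaged 224 ± 156 CPM in NPYtet and 1.57 ± 1.03 CPM in WT skin (SD, n = 5 each), and was the only gene called, at a log2 fold change of 7.45 (adjusted p = 0.000109, edgeR). The basal keratinocyte gene Krt5 averaged 5521 CPM in NPYtet and 8454 CPM in WT, and the fibroblast gene Col1a2 averaged 10550 and 9787 CPM, so the skin label was met in both groups.

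**Figure D1:**
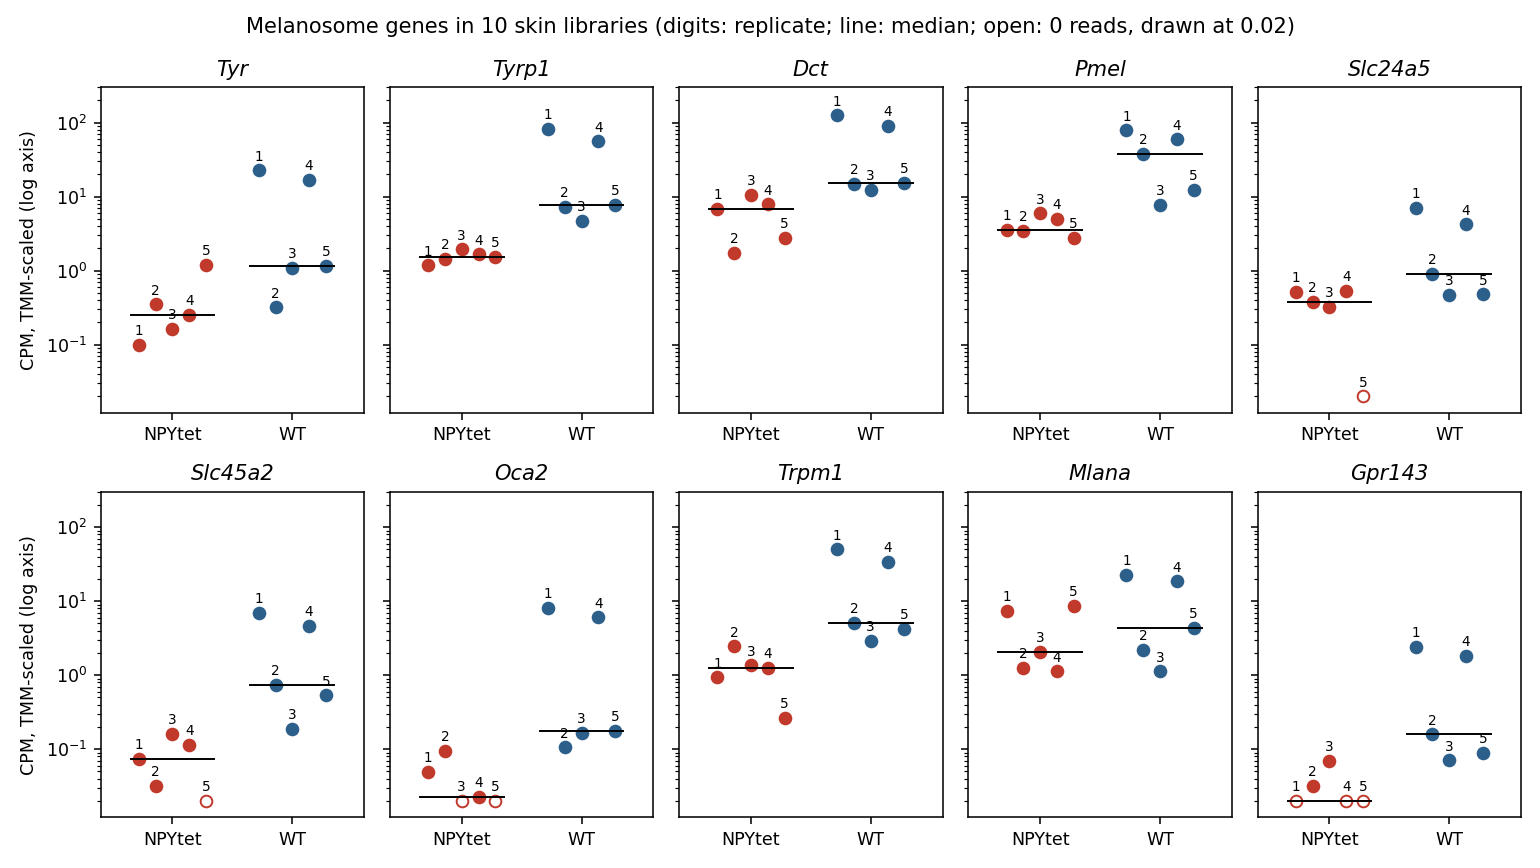
Level of each of the 10 melanosome genes in every library, in TMM-scaled CPM on a log axis, for 5 NPYtet (left) and 5 WT mice (right); digits are replicate numbers, lines are group medians and open circles mark 0 reads. WT replicates 1 and 4 are the 2 highest libraries for all 10 genes, while WT replicates 2, 3 and 5 lie closer to the NPYtet mice, apart from Pmel in WT replicate 2 at 37.6 CPM.

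The melanin enzymes come first. Tyrp1 (chr4:80834123-80851719, plus strand), which oxidises a late intermediate of black melanin in mice, had 1.18, 1.43, 1.94, 1.65 and 1.52 CPM in NPYtet replicates 1 to 5, against 82.7, 7.24, 4.68, 55.7 and 7.66 CPM in WT replicates 1 to 5. All 5 NPYtet mice lay within a narrow band below every WT mouse, and the WT mice differed 17.7-fold among themselves. The means were 1.54 ± 0.279 CPM in NPYtet and 31.6 ± 35.7 CPM in WT (SD, n = 5 each). The unadjusted p of 0.000181 was the fifth smallest of all genes, and the adjusted p was 0.655 (edgeR).

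Dct (chr14:118012790-118052244, minus strand), the tautomerase that acts on dopachrome and is also made by unpigmented melanocyte precursors, had 6.86, 1.75, 10.6, 7.83 and 2.78 CPM in NPYtet, against 125, 14.9, 12.3, 90.9 and 15.2 CPM in WT. The highest NPYtet mouse stood close to the lowest WT mouse, and scaling by total counts alone made these 2 overlap, at 12.8 CPM in NPYtet replicate 3 and 10.3 CPM in WT replicate 2. The log2 fold change was -3.58 (SE 0.715; adjusted p = 0.744, edgeR).

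Tyr (chr7:87424771-87493512, minus strand), the tyrosinase that opens the pathway, had 0.0984, 0.350, 0.161, 0.252 and 1.19 CPM in NPYtet, against 22.6, 0.317, 1.08, 16.8 and 1.16 CPM in WT. Its groups overlapped at both ends: WT replicate 2, with 6 reads, lay below NPYtet replicate 2, with 11 reads, and NPYtet replicate 5, with 18 reads, lay above 3 of the 5 WT mice. The log2 fold change of -4.56 had the widest error of the tested genes (SE 1.36; adjusted p = 0.9995, edgeR), and WT replicates 1 and 4 held 95.4% of its WT reads.

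Pmel (chr10:128704195-128720238, plus strand), which forms the fibrils on which melanin settles, had 3.54, 3.44, 5.93, 5.02 and 2.78 CPM in NPYtet, against 78.6, 37.6, 7.71, 59.4 and 12.4 CPM in WT. Every NPYtet mouse lay below every WT mouse, and WT replicate 2 stood much nearer to WT replicates 1 and 4 here than it did for the enzymes. The means were 4.14 ± 1.29 CPM in NPYtet and 39.2 ± 30.3 CPM in WT (SD, n = 5 each). Its unadjusted p of 3.8e-05 was the second smallest after that of Npy, with an adjusted p of 0.306 (edgeR). Pmel shares 34 exonic bases with Cdk2 and 105 with Dgka on the opposite strand. Those neighbours had log2 fold changes of -0.43 and -0.26, and the sources used here do not give the strand setting of the counts.

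Among the channels and transporters, Trpm1 (chr7:64153835-64269775, plus strand), a cation channel of melanocytes and retinal bipolar cells, had 0.935, 2.45, 1.36, 1.26 and 0.265 CPM in NPYtet, against 50.2, 5.13, 2.89, 34.3 and 4.24 CPM in WT. The groups did not overlap, and NPYtet replicate 2 came nearest to the WT mice. The log2 fold change was -3.94 (SE 0.921; adjusted p = 0.868, edgeR). The microRNA gene Mir211, which lies in a Trpm1 intron, had 0 reads in all 10 poly(A) libraries.

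Slc24a5 (chr2:125068124-125088677, plus strand), a sodium and calcium exchanger first tied to pigment in zebrafish, had 0.516, 0.382, 0.323, 0.527 and 0 CPM in NPYtet, against 7.02, 0.899, 0.470, 4.22 and 0.475 CPM in WT. The groups overlapped, since WT replicates 3 and 5 fell between the NPYtet mice. The log2 fold change was -3.06 (SE 0.820; adjusted p = 0.888, edgeR). The 0 reads in NPYtet replicate 5 allow up to 3 reads, or 0.198 CPM, which covers counting error only. Slc24a5 shares 921 exonic bases with Myef2 on the opposite strand, whose log2 fold change was -0.11.

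Slc45a2 and Oca2, a transporter and an anion channel that in mice keep the melanosome from becoming too acid, were below the filter on low counts, as was Gpr143, so these 3 were not tested and no fold change is given for them. Slc45a2 (chr15:11000721-11029233, plus strand) had 3, 1, 7, 5 and 0 reads in NPYtet, against 269, 14, 8, 282 and 18 reads in WT. Oca2 (chr7:56239760-56536518, plus strand) had 2, 3, 0, 1 and 0 reads in NPYtet, against 317, 2, 7, 366 and 6 reads in WT. WT replicates 1 and 4 held 93.2% of the WT reads of Slc45a2 and 97.8% of those of Oca2. All NPYtet values of these genes rest on fewer than 10 reads. In TMM-scaled CPM every NPYtet mouse lay below every WT mouse for both, with Oca2 at up to 0.0954 CPM in NPYtet and from 0.106 CPM in WT. With scaling by total counts alone this held for Slc45a2, and Oca2 overlapped. Slc45a2, Oca2 and Gpr143 were also not tested in the fit without WT replicates 1 and 4.

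Gpr143 (chrX:152781921-152808646, plus strand), a receptor of the melanosome membrane, had 0, 1, 3, 0 and 0 reads in NPYtet, against 93, 3, 3, 109 and 3 reads in WT. Here too WT replicates 1 and 4 stood far above the rest. The groups did not overlap in TMM-scaled CPM, at up to 0.0692 CPM in NPYtet and from 0.0705 CPM in WT, and overlapped with scaling by total counts alone. Mlana (chr19:29697824-29708634, plus strand), a small melanosomal protein that takes part in Pmel processing, was the exception among the better covered genes. It had 7.33, 1.24, 2.08, 1.12 and 8.73 CPM in NPYtet, against 22.8, 2.22, 1.13, 18.5 and 4.33 CPM in WT. NPYtet replicates 1 and 5 lay above WT replicates 2, 3 and 5. The log2 fold change was -1.27 (SE 0.909), with an unadjusted p of 0.191.

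Of the 7 genes tested, 4 had every NPYtet mouse below every WT mouse: Tyrp1, Dct, Pmel and Trpm1. Over all 18060 genes tested this held for 39, or 0.216%. The median log2 fold change of the 7 was -3.58, against -0.01 over all genes tested. With scaling by total counts alone, Tyrp1, Pmel and Trpm1 still did not overlap and Dct did. DESeq2 called 4 of the 6 genes to which it gave an adjusted p, Tyrp1, Pmel, Slc24a5 and Trpm1, with 0.172% of all genes called lower. Dct had a log2 fold change of -3.55 there but neither an unadjusted nor an adjusted p, and Slc45a2, Oca2 and Gpr143 were not in that fit. EdgeR without a filter on low counts called all of the 10 but Mlana, with 0.992% called lower. Without WT replicate 3, the lowest WT library for 8 of the 10 genes, edgeR called Tyrp1, Dct and Pmel, with 0.0382% called lower. Slc45a2 was called there too, but it entered that fit only through the WT libraries that carry its reads. Without the libraries that stood apart or went against a label (WT replicate 2 and NPYtet replicates 1 and 5), the log2 fold changes of the 7 genes ran from -5.35 to -2.93, and none was called.

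WT replicates 1 and 4, 1 labelled female and 1 labelled male, were then left out together, a step chosen after seeing the values. The log2 fold change became -2.02 (SE 0.433) for Tyrp1, -1.92 (SE 0.521) for Dct, -2.15 (SE 0.590) for Pmel and -1.54 (SE 0.585) for Trpm1. These 4 genes kept a lower level at an unadjusted p under 0.05, against 0.471% of all genes, but none passed the adjusted threshold, which 0% of genes did in that direction. Tyr at -1.30 (SE 0.722) and Slc24a5 at -0.93 (SE 0.822) lay closer to 0. Mlana turned to the opposite side at 0.97 (SE 0.767), and was already at 0.02 without WT replicate 1 alone. Among the 3 remaining WT mice Tyrp1 averaged 6.53 ± 1.61 CPM and Dct 14.11 ± 1.599 CPM (SD, n = 3).

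**Figure D2:**
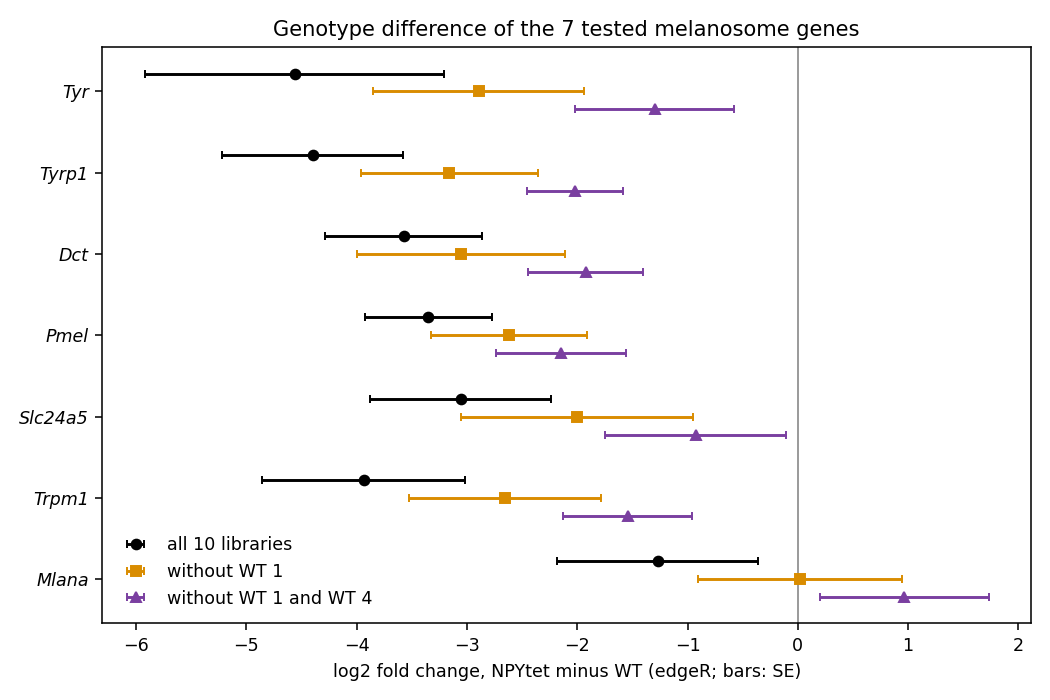
Log2 fold change, NPYtet minus WT, of the 7 tested melanosome genes with all 10 libraries (circles), without WT replicate 1 (squares) and without WT replicates 1 and 4 (triangles); bars are standard errors from edgeR. Pmel lies at -3.35, -2.62 and -2.15 in these fits, and Mlana at -1.27, 0.02 and 0.97.

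Levels were lower in NPYtet within both labelled sexes. Within mice labelled female the log2 fold change was -4.78 (SE 1.12) for Tyrp1, -3.16 (SE 0.787) for Pmel and -3.02 (SE 0.886) for Dct, and 6 of the 7 genes had an unadjusted p under 0.05, against 2.48% of all genes. Within mice labelled male the values were -4.00 (SE 1.26) for Tyrp1, -3.55 (SE 0.910) for Pmel and -4.17 (SE 1.07) for Dct, and 5 of the 7 had an unadjusted p under 0.05, against 4.01% of all genes. None of the 7 passed the adjusted threshold in either sex, where 0% of genes passed in females and 0.00554% in males. That result depended on the fit. Tyrp1, Dct and Pmel were each called in 2 alternative fits within mice labelled female, and likewise in 2 within mice labelled male. The difference between the sexes, male minus female, was largest for Tyr at 3.04 (SE 2.18), and none of the 7 differences had an unadjusted p under 0.05, against 1.63% of all genes. Each sex and genotype held only 2 or 3 mice, and the female NPYtet mice include replicate 1. Each labelled sex also held 1 of the 2 WT libraries that set most of the distance between the groups. Among WT females Tyrp1 stood at 82.7 CPM in replicate 1 and 4.68 CPM in replicate 3. Among WT males it stood at 55.7 CPM in replicate 4, and at 7.24 and 7.66 CPM in replicates 2 and 5.

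The make-up of the pigment transcripts was compared per length, as CPM per kilobase of exon and as a share of the sum over the 10 genes. Pmel ranked first in all 5 WT mice and in NPYtet replicates 2, 3 and 4, and Mlana ranked first in NPYtet replicates 1 and 5. By the length of the longest transcript instead of all exons, Dct ranked first in NPYtet replicate 3, at 32.7% against 29.7% for Pmel. Mlana made up 66.7%, 30.1%, 26.6%, 19.1% and 77.4% of the summed level per kilobase in NPYtet replicates 1 to 5, against 17.8%, 8.5%, 12.1%, 19.6% and 26.1% in WT replicates 1 to 5. The shares of Mlana overlapped between the groups, with the 2 highest in NPYtet replicates 1 and 5.

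Tyrp1 averaged 8.36 ± 3.76% of the sum in NPYtet and 18.5 ± 5.29% in WT, and Dct 14.3 ± 9.31% and 17.0 ± 4.72% (SD, n = 5 each). By the longest transcript the Dct share was 19.5 ± 12.2% in NPYtet and 23.4 ± 5.94% in WT, and that of Trpm1 was 3.27% in NPYtet and 4.55% in WT, against 1.56% and 2.17% by all exons. Pmel averaged 27.8 ± 13.6% in NPYtet and 39.2 ± 15.7% in WT (SD, n = 5 each). Oca2, Gpr143 and Slc45a2 averaged at most 0.387% in NPYtet and 1.31% in WT. No test was made on these shares, which are tied to each other because they add up to the whole.

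**Figure D3:**
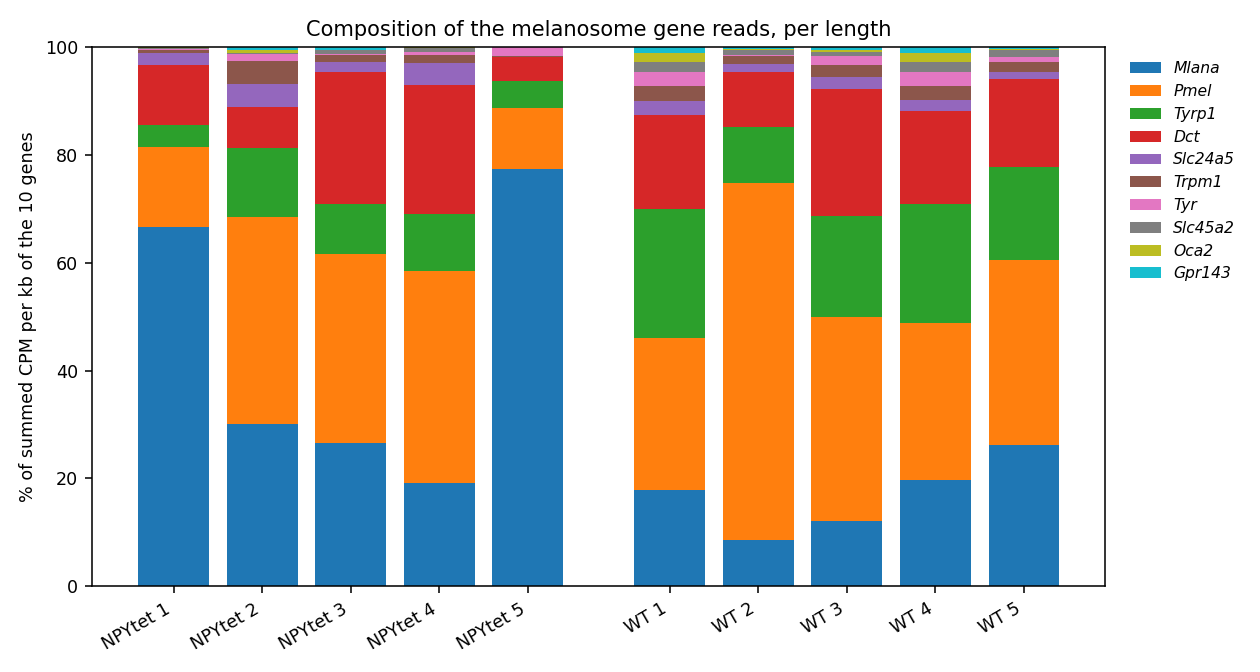
Share of each of the 10 melanosome genes in their summed CPM per kilobase of exon, in percent, for each NPYtet library (left) and each WT library (right). Mlana takes 66.7% and 77.4% in NPYtet replicates 1 and 5, and Pmel is the largest part in every WT library.

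Genes of the growing hair were also lower in NPYtet skin on average. All 27 genes of a hair shaft and inner root sheath list had negative log2 fold changes, against 51.2% of all genes, with a median of -4.13. None passed the adjusted threshold in the fit as reported, and 9 of the 27 had an unadjusted p under 0.05, against 2.14% of all genes. WT replicate 1 carried much of that size: without it alone the median was -1.22 with 25 of 27 genes lower, while the other single libraries left out gave medians of -5.87 to -2.97. The median was -2.15 without the sex term and -2.43 under limma voom. DESeq2 called 7 of the 27 hair genes, with 0.172% of all genes called lower. EdgeR without a filter on low counts called all 27 hair genes, with 0.992% called lower. Their summed level ran from 71.0 to 17330 CPM in NPYtet and from 375.9 to 31730 CPM in WT, so the groups overlapped, and the groups overlapped for all 27 genes, while 0.216% of all genes had every NPYtet library below every WT library. Examples are Dlx3 at -2.31 (SE 0.507), Msx2 at -2.61 (SE 0.618), Hoxc13 at -2.20 (SE 0.584) and Lef1 at -3.13 (SE 0.731), 4 transcription factors of the growing follicle. Without WT replicate 1, Dlx3 stood at -1.30, Msx2 at -1.33, Hoxc13 at -0.97 and Lef1 at -1.97. Without WT replicates 1 and 4 the median of the list was -0.93, with 26 of 27 genes lower.

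The melanosome and hair sums differed in their order over the libraries. The 10 melanosome genes summed to 20.6, 11.2, 22.6, 17.8 and 17.3 CPM in NPYtet replicates 1 to 5, against 406, 69.3, 30.7, 292 and 46.2 CPM in WT replicates 1 to 5. The hair genes summed to 71.0, 1772, 187.5, 99.2 and 17330 CPM in NPYtet, against 29330, 31730, 375.9, 21570 and 10120 CPM in WT. NPYtet replicate 5 had a higher hair sum than WT replicates 3 and 5 and fewer melanosome reads than either. WT replicate 2 had the highest hair sum of all with a melanosome sum of 69.3 CPM, against 406 CPM in WT replicate 1. These are the libraries that stood apart in genes with a read and scaling factor, and the sums do not stand for each hair gene. Dlx3, Msx2, Hoxc13 and Lef1 were all lower in NPYtet replicate 5 than in WT replicate 5, with Lef1 at 3.44 against 6.975 CPM. Against WT replicate 3, Lef1 alone was lower. All were also lower in WT replicate 2 than in WT replicate 1, with Lef1 at 7.98 against 47.2 CPM. The part of the hair genes in the melanosome result was not tested.

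**Figure D4:**
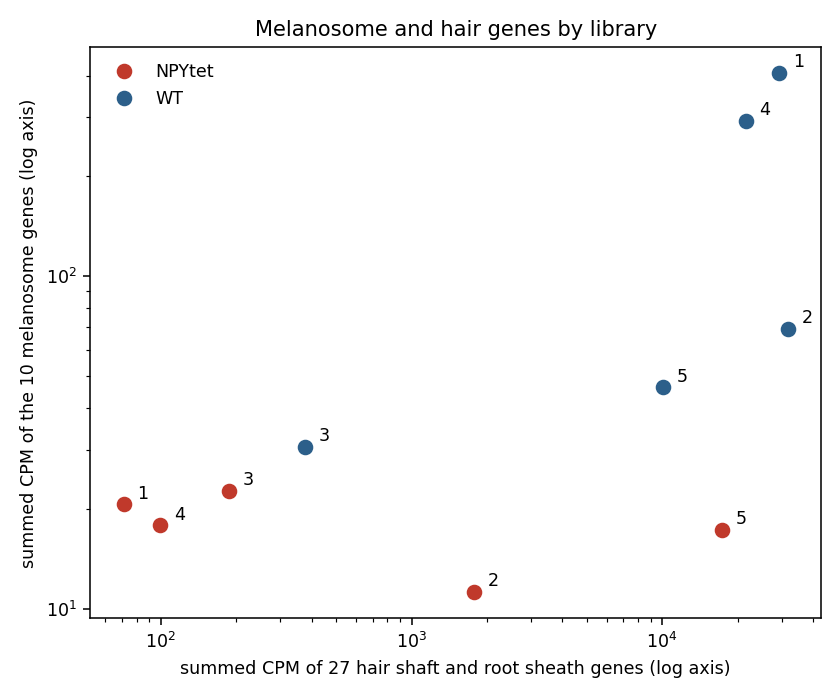
Summed CPM of the 10 melanosome genes against summed CPM of 27 hair shaft and inner root sheath genes, both on log axes, for 5 NPYtet and 5 WT libraries numbered by replicate. The NPYtet libraries lie between 11.2 and 22.6 CPM on the melanosome axis at hair levels of 71.0 to 17330 CPM, and all WT libraries lie above them on the melanosome axis. The 3 highest hair levels are WT libraries.

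Genes that act around the melanin machinery stood at a smaller difference in the median. Of 30 genes of melanosome transport and biogenesis, 19 were lower and 11 higher, the median log2 fold change was -0.05, and none passed the adjusted threshold. The 30 summed to 996 to 1360 CPM in NPYtet and 979 to 1800 CPM in WT, far above the sum of the melanosome genes. The share of those reads that came from pigment cells was not tested, so the median says little about pigment cells. With no filter on low counts 2 of the 30 were called, with 0.992% of all genes called lower. Mcoln3, an endolysosomal cation channel, had the smallest p of that list at -2.29 (SE 0.776; unadjusted p = 0.0103), and its level of 0.791 ± 0.566 CPM in NPYtet and 2.63 ± 2.43 CPM in WT overlapped (SD, n = 5 each). Sytl2, a Rab27 effector, was at -1.34 (SE 0.632), the cystine transporter Slc7a11 at -1.13 (SE 0.717) and Bloc1s1, a subunit of a lysosome-related organelle complex, at 0.71 (SE 0.434). Without WT replicates 1 and 4, 14 of the 30 were lower, Mcoln3 stood at -1.11, Sytl2 at 0.13 and Slc7a11 at 0.34, and without WT replicate 1 alone Slc7a11 was already at 0.30.

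The factors and receptors that mark the melanocyte lineage also stood at a smaller difference in the median. All 7 tested had negative values, none passed the adjusted threshold or had an unadjusted p under 0.05, and the median was -0.32. With no filter on low counts 1 of 8 was called, with 0.992% of all genes called lower. Pax3, a transcription factor of melanocyte precursors, was at -1.32 (SE 0.680), Tfap2a, shared with keratinocytes, at -0.52 (SE 0.302), the receptor Kit at -0.59 (SE 0.521) and the neural crest factor Sox10 at -0.32 (SE 0.338). Without WT replicates 1 and 4, 4 of the 7 were lower, and Kit stood at 0.03. Pax3 was at -0.44 without the sex term. The summed level of the list was 177 to 292.6 CPM in NPYtet and 247 to 413 CPM in WT, so the groups overlapped. Tfap2a alone ran from 50.5 to 134.1 CPM over all libraries and Pax3 from 0 to 3.36 CPM, so the sum says little about Pax3. Schwann cell genes, some of which Sox10 also marks, had a median of 0.06 over 9 genes.

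Of 6 tested ligands and modulators of melanocytes, 5 were lower and 1 higher, with a median of -0.35 and none past the adjusted threshold. Edn1, an endothelin that melanocytes respond to, was at -0.76 (SE 0.372), Corin, a dermal papilla protease, at -1.50 (SE 0.747) and Edn3 at -0.58 (SE 0.404). Corin stood at -0.31 without WT replicate 1 and at -2.68 without NPYtet replicate 5. The agouti gene a, which switches melanocytes to yellow pigment, was at 0.30 (SE 0.427) with the sex term and at -0.17 without it. Basal keratinocyte genes had a median of 0.05, macrophage genes 0.04 and muscle genes -0.08. Dermal fibroblast genes had a median of 0.67 with 6 of 7 higher, which became -0.15 with 3 of 7 higher without NPYtet replicate 1, and white adipocyte genes 0.81 with 8 of 8 higher. No gene of these lists passed the adjusted threshold in the fit as reported. With no filter on low counts 1 white adipocyte gene was called, with 83 of all 32857 genes called higher. The part of fibroblast and adipocyte RNA in the melanosome result was not tested.

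**Figure D5:**
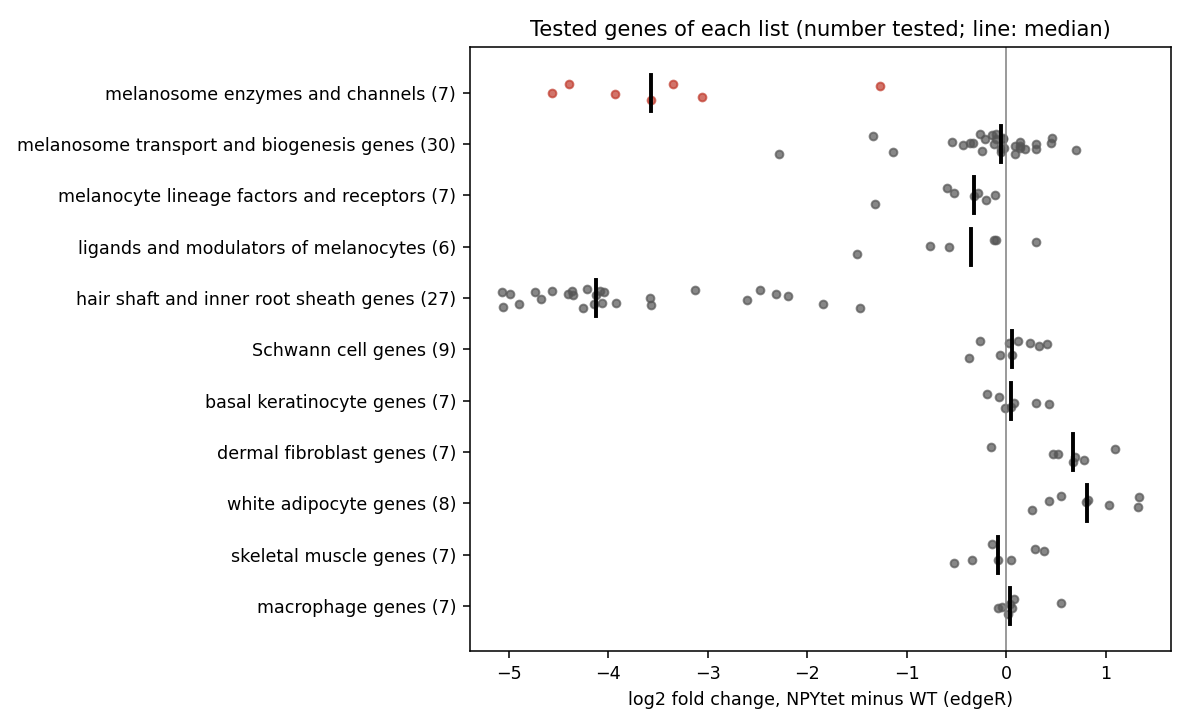
Log2 fold change, NPYtet minus WT (edgeR), of each tested gene in the melanosome set and 10 other lists, with the number tested in brackets and the median as a line. The melanosome genes have a median of -3.58 and the hair genes of -4.13, while the medians of transport genes (-0.05) and lineage genes (-0.32) lie nearer 0.

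The genes most like the melanosome genes over the 10 libraries were found from the correlation of log2 CPM with the mean log2 CPM of the 10. Dclk3, a kinase, had r = 0.984, the cadherin Cdh6 0.977, Stmn1, which destabilises microtubules, 0.965 and the transcription factor Cux1 0.962. The next 6 were Mycn, Adamts20, Msi1, Nxpe3, Wif1 and Lef1, with r of 0.951 to 0.960. Over the 8 libraries without WT replicates 1 and 4 these r values became 0.909 for Dclk3, 0.925 for Cdh6, 0.752 for Stmn1 and 0.821 for Cux1, and 0.557 to 0.750 for the other 6. These points share libraries and depth and include the genotype difference, so the values are descriptions and carry no p.

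The melanosome genes also differed in how closely each followed the mean of the other 9. Over 10 libraries r was 0.986 for Tyrp1, 0.981 for Gpr143, 0.974 for Slc45a2 and 0.966 for Oca2, and lowest for Mlana at 0.637. Over the 8 libraries without WT replicates 1 and 4, Tyrp1 stayed at 0.947, Slc45a2 at 0.938 and Pmel at 0.886, while Gpr143 stood at 0.837 and Oca2 at 0.701. Tyr dropped to 0.11 and Mlana to -0.32 over those 8, where Tyr rests on 4 to 46 reads per library and Slc45a2 on 0 to 18. Oca2 rests there on 0 to 7 reads per library and Gpr143 on 0 to 3.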

How the data were processed

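RNA from whole skin of 10 mice was sequenced as poly(A) libraries with a directional kit, per the labels' protocols. The deposited files, 1 per mouse, hold raw read counts in whole numbers, with Ensembl IDs as row names. The submitters' processing notes name the aligner STAR 2.5.2, the trimmer Trimmomatic 0.36, bcl2fastq, FastQC 0.11.8, DESeq2 1.30.1 and the mm10 build. The sources used here do not give the annotation release or the strand setting of the counts. Of 49671 IDs, 49412 matched GENCODE M21 (GRCm38), and the other 259 held 0.019% of reads.

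The 10 melanosome genes, the lists, the tests and the rule for naming genes were chosen with earlier results of these data known. That rule names the 10 genes, Npy, up to 4 tested genes with the smallest p of each list (printed for the pigment and hair lists), the 10 genes most like the melanosome genes with a mean CPM of at least 1, and genes overlapping a member. Krt5 and Col1a2 were named as fixed skin markers. Attrn and Krt85 were not analysed here.

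The tests were run in edgeR 4.0.16 (R 4.3.3). Filtering with filterByExpr by genotype (count of at least 10, total of at least 15) kept 18060 genes and 7 of the 10 melanosome genes; Slc45a2, Oca2 and Gpr143 did not pass. After TMM scaling, the robust quasi-likelihood test was fitted to the sex label and genotype, with Benjamini-Hochberg adjustment over all genes and a threshold of 0.05. A fit of the 4 combinations of genotype and labelled sex gave the values within each sex. Log2 CPM used a prior count of 2. The fit was checked on simulated counts with known changes. Alternatives used DESeq2 1.42.0, limma 3.58.1 (voom with quality weights), other scaling and filters, no sex term, a replicate block and libraries left out. Replicate numbers did not pair the mice. No 2 libraries of a group agreed within sampling noise by a chi-square comparison. Promoter sequences come from RefSeq (GRCm38.p6).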

Additional observations from a re-analysis of the deposited data

Results flagged for a closer look

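1 value stood far from the rest of its group. Tyr in NPYtet replicate 5 was the highest of the 5 NPYtet mice at 1.19 CPM, against 0.0984 to 0.350 CPM in the other 4, a gap larger than Dixon's 95% limit of 0.710 of the group's range. It rests on 18 reads, against 4 to 11 in the other NPYtet libraries, in the library with the fewest reads and a scaling factor of 0.652. Scaled by total counts alone it was 0.776 CPM, still the highest of the group, against 0.105 to 0.361 CPM in the other 4. On that scale the gap was a smaller part of the range, and Dixon's limit was not applied to it. Dixon's limit was applied to 20 groups of 5 libraries, and chance passes it in about 1 group in 20.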

How the results depend on the processing

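Over 20 alternatives, 150 of 152 fitted values of the melanosome genes were negative, and the 2 positive ones were Mlana, at 0.016 without WT replicate 1 (leaving out 1 library at a time gave -2.077 to 0.016) and 0.966 without WT replicates 1 and 4. The count includes 9 values of Slc45a2, 2 of Oca2 and 1 of Gpr143, which were below the filter in the fit as reported. WT replicates 1 and 4 held 93.2%, 97.8% and 95.7% of their WT reads. All alternatives reuse the same mice, so the count is no independent support. With 1 gene called by genotype and no melanosome gene among them in the fit as reported, DESeq2 called 35 genes and 4 melanosome genes, and no filter on low counts gave 409 and 9. DESeq2 gave Dct neither an unadjusted nor an adjusted p. Voom called 2 genes and none of the melanosome genes, with smaller sizes: -1.57 for Dct, -1.04 for Slc24a5 and -1.98 for Trpm1. Leaving out 1 library at a time gave 1 to 8 genes and 0 to 4 melanosome genes, with both upper values reached without WT replicate 3. Without WT replicate 2 and NPYtet replicates 1 and 5, 0 genes were called (edgeR), and Npy stayed at a log2 fold change of 7.45 with an adjusted p of 0.133. The cause of these moves was not tested, and the fit without a filter tests 32857 genes, many of them with few reads.

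The replicate numbers did not pair the mice: same-numbered deviations correlated at -0.256 to 0.644. With the replicate number as a block, 1 gene and 0 melanosome genes were called, and the log2 fold changes of the tested genes ran from -2.84 for Tyrp1 to -0.14 for Mlana, with a median of -2.09 for the hair list.

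Of 318 values of the 16 other list genes named, 6 changed sign: Sytl2 to 0.133, Slc7a11 to 0.343 and Kit to 0.031 without WT replicates 1 and 4, Slc7a11 to 0.303 without WT replicate 1 (with -1.678 as its lowest value without 1 library), Kit to 0.173 under voom, and the agouti gene a to -0.171 without the sex term. Another 10 of the 318 values passed the adjusted threshold, which none of these genes did in the fit as reported. Dlx3, Msx2, Hoxc13 and Lef1 passed it in 2 alternatives each, and Mcoln3 and Sytl2 in 1 each. Without WT replicate 2 and NPYtet replicates 1 and 5 together, the difference between the sexes changed sign for Slc24a5, to 0.542, and Mlana, to -0.266; only 1 NPYtet mouse labelled male remains there, and it is assumed to vary like the other groups. Depth limits Slc45a2, Oca2 and Gpr143, with 4 to 16 reads over all NPYtet libraries.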
